A study of Mus musculus with 8 samples.

Results

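The chemokine system of the mouse liver was examined in N-LKO and WT mice, as the genes whose symbols name a chemokine (Ccl, Cxcl, Cx3cl, Xcl), a chemokine receptor (Ccr, Cxcr, Cx3cr, Xcr) or an atypical chemokine receptor (Ackr). The count table of 19642 genes held 39 such genes, of which 23 encode ligands, 12 encode signalling receptors and 4 encode atypical receptors. A mean level of at least 0.3 CPM (read counts scaled to library size) over the 8 livers was reached by 27 of them, namely 17 ligands, 7 receptors and 3 atypical receptors. The members were thus chosen by name and by mean level over both genotypes, with earlier results of these data known. A gene high in 1 genotype alone could pass the level limit. Cx3cr1 did so, with means of 0.253 CPM in WT and 2.10 CPM in N-LKO livers. Just outside that limit was Ccr1 at a mean of 0.278 CPM, and just inside it was Ccl19 at 0.390 CPM.

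RNA came from the livers of 4 WT and 4 N-LKO male mice of C57BL6 background on chow diet (CD), with 1 library per mouse and rRNA removed. N-LKO mice lack, in hepatocytes, Nus1, the gene for the NgBR subunit of the cis-prenyltransferase, through an albumin-Cre transgene acting on a NgBR loxP/loxP allele. This Cre is active in hepatocytes, so the immune, endothelial and mesenchymal cells of these livers keep the gene, and whether the WT mice carried the floxed allele is not stated. The sample titles give 8 weeks of diet and the treatment entries give 16 weeks, which leaves the duration uncertain. Nus1 mRNA was 88.2 ± 4.14 CPM in WT and 36.7 ± 2.57 CPM in N-LKO livers (SD, n = 4 each), without overlap. These counts cover the whole gene, of which the first exon is the floxed part. Total counts ranged from 15430500 to 18412200 per WT liver and from 14688400 to 18585400 per N-LKO liver, so that 3 counts correspond to 0.160 to 0.204 CPM. Hepatocyte markers summed to 65743 to 94855 CPM in WT and 70682 to 86279 CPM in N-LKO livers, with none of the 6 markers called.

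Chemokines are small secreted or membrane-anchored proteins that bind seven-transmembrane receptors on leukocytes and direct their migration. In the liver they come from hepatocytes, sinusoidal endothelial cells, stellate cells, bile duct cells and Kupffer cells, and they place monocytes, neutrophils, T cells and NK cells in the tissue. Atypical receptors bind the same ligands without the usual G protein signal and remove or transport them. Several ligands of one subfamily lie side by side in the genome and share a receptor, as do Cxcl9, Cxcl10 and Cxcl11, which are induced by interferon and bind Cxcr3.

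Promoter sequences are shown for 3 genes. Cx3cr1 was the only member whose difference between genotypes passed the test. Cxcl9 and Cxcl10 are interferon-induced neighbours on chromosome 5 that share a receptor, and neither passed the test. Each sequence is the 250 bases before the RefSeq transcription start in build GRCm38.p6, written 5′ to 3′ on the strand of the gene, at chr9:120068297-120068546, chr5:92328080-92328329 and chr5:92348890-92349139, all on the minus strand. Capitals mark matches to an interferon-stimulated response element core (ISRE, searched as GAAANNGAA), an interferon-gamma activated site (GAS, searched as TTCNNNGAA) or the kappa B consensus, each searched on both strands.
Cx3cr1: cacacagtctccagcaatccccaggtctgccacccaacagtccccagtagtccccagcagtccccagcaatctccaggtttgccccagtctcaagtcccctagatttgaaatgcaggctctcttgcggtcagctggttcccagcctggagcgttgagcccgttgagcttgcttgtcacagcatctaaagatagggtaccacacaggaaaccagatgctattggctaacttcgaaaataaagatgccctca
Cxcl9: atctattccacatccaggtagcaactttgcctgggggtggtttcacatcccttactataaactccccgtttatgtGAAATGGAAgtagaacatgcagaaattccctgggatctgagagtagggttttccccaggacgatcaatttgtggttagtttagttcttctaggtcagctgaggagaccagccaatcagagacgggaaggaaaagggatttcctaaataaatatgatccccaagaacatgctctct
Cxcl10: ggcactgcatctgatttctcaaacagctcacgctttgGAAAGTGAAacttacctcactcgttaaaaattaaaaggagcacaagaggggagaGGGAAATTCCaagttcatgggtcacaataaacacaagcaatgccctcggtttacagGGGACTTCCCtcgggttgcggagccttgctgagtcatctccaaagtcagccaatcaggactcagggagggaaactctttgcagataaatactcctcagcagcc

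Cxcl10 held the ISRE core GAAAGTGAA at 213 to 205 bases before the start and kappa B matches at 159 to 150 and at 103 to 94 bases before it. Cxcl9 held 1 ISRE core, GAAATGGAA, at 175 to 167 bases before the start. In Cx3cr1 none of the 3 motifs occurred in this window. Of all 32851 mouse promoters in the table, 7.13% held the ISRE core, 7.02% the GAS and 3.9% the kappa B consensus. A promoter was listed for 22 of the 27 reported genes. The ISRE core also occurred before Ccl19, Ccr2 and Cxcl14, the GAS before Cxcl14 and the kappa B consensus before Ackr2, Ccl9 and Cxcl1. Such matches describe letters only and no binding was measured.

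The steady-state composition was dominated by Cxcl12, the ligand of Cxcr4 and Ackr3 that retains haematopoietic cells in tissue, which made up 77.4% of the CPM summed over all 39 genes. Per kilobase of annotated exon, Cxcl12 stood at a mean of 37.6 CPM/kb over the 8 livers. It was followed by Ccl9 at 8.98 CPM/kb, Cxcl13 at 5.36 CPM/kb and Ccl6 at 4.19 CPM/kb. Cxcl13 stood at 8.18 CPM/kb in WT and 2.54 CPM/kb in N-LKO livers, so it was above Ccl6 in the WT mean only. Ackr2, Cxcl16 and Cxcl9 were at 1.97, 1.66 and 1.53 CPM/kb. Cxcr4 had the highest level per kilobase among the signalling receptors, at 0.839 CPM/kb, and Cx3cr1 was at 0.261 CPM/kb. The summed level of the 39 genes was 384 ± 52.1 CPM in WT and 410 ± 43.2 CPM in N-LKO livers (SD, n = 4 each), a difference within the spread between mice.

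**Figure D1:**
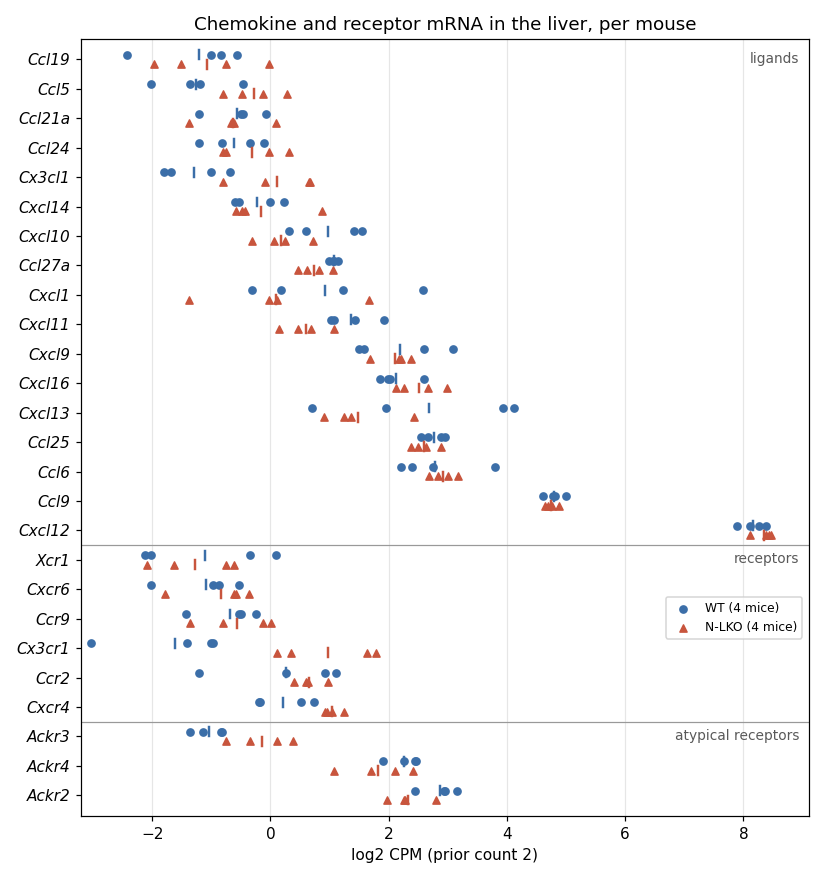
Level of 26 of the 27 reported genes in each liver, on a log2 CPM axis with a prior count of 2, for 4 WT mice (circles) and 4 N-LKO mice (triangles), with vertical ticks at the group means and genes ordered by mean level within ligands, receptors and atypical receptors. Cxcl12 lies far to the right of all others, and only Cx3cr1, Cxcr4 and Ackr3 have every N-LKO liver above every WT liver.

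Few genes of this family passed the test between genotypes. Of the 27 reported genes, 18 had enough counts to be tested by edgeR. The quasi-likelihood test, with p-values adjusted over 14214 genes (Benjamini-Hochberg), called 1 of the 18, Cx3cr1, at an adjusted p under 0.05. Over all genes tested, 1.04% were called, with 0.823% higher and 0.218% lower in N-LKO livers. None of the 18 was called lower. At an unadjusted p under 0.05, 6 of the 18 passed, of which Cx3cr1 and Cxcr4 had higher and Ackr2, Cxcl10, Cxcl11 and Cxcl13 had lower means in N-LKO livers. This threshold was passed by 12.8% of all genes. The genotypes did not overlap for 2 of the 18 tested genes, Cx3cr1 and Cxcr4, against 7.52% of all genes, and for Ackr3 among the genes not tested.

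The median log2 fold change of the 18 genes was -0.19, against -0.0033 over all genes. Values were above 0 for 6 members and below 0 for 12, while 49.3% of all genes were above 0. By role, the median was -0.19 for the 12 ligands tested, 0.49 for the 4 receptors and -0.47 for both atypical receptors. The median moved with the mice and members entered. With each mouse left out it ran from -0.16 to 0.000957 over 20 to 23 members, and with all mice and no filter it was -0.018 over 27 members.

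**Figure D2:**
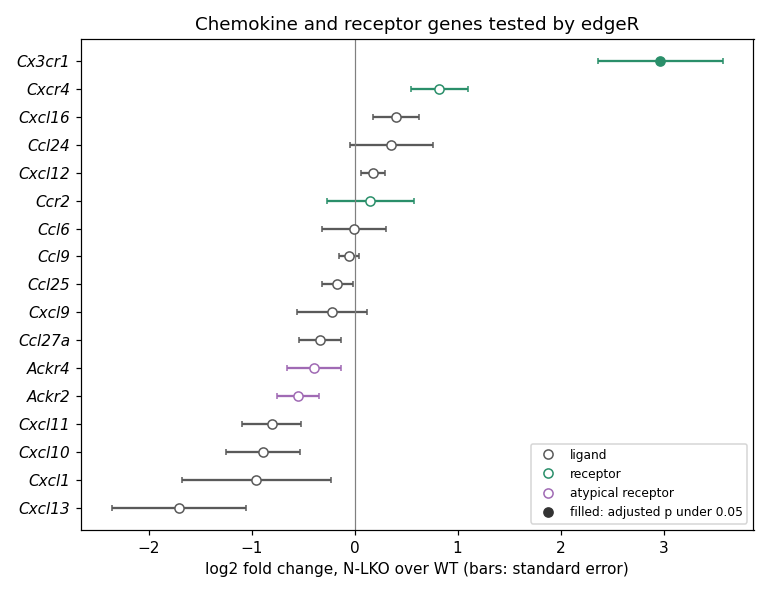
Log2 fold change of N-LKO over WT for 17 of the 18 genes tested by edgeR, with bars of 1 standard error and colours for ligands, receptors and atypical receptors. Only Cx3cr1, at 2.97, carries a filled point (adjusted p under 0.05), while the bars of Cxcl13 and Cxcl1 span the widest range.

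Cx3cr1 was called higher in N-LKO livers by a narrow margin, on few counts. It encodes the receptor for fractalkine and is known from monocytes and subsets of tissue macrophages, and the gene (ENSMUSG00000052336.7) occupies bases 119901616 to 120069879 of chromosome 9, minus strand. The level was 0.374, 0, 0.254 and 0.386 CPM in WT replicates 1 to 4. In N-LKO replicates 1 to 4 it was 0.964, 2.97, 3.32 and 1.15 CPM. The lowest N-LKO liver exceeded the highest WT liver, and an exact two-sided permutation test gave p = 0.0286, the smallest that 4 against 4 mice allow. Any gene without overlap between genotypes receives this p, so it restates the non-overlap, here and for Cxcr4 and Ackr3 below. It was not adjusted over genes. N-LKO replicates 2 and 3 were well above the other 2 mice of that group. In the edgeR fit this was a log2 fold change of 2.97 with a standard error of 0.608, or 7.83-fold, at an adjusted p of 0.0499.

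The depth behind this result was small. WT livers held 18 Cx3cr1 counts in all and N-LKO livers 129, and the count of 0 in WT replicate 2 allows a level of up to 0.188 CPM. The gene passed the filter on low counts through its N-LKO livers alone, and it is not tested where every mouse must hold 10 counts. Leaving out any 1 mouse kept the log2 fold change at 2.59 to 3.23, but the adjusted p ranged from 0.0397 to 0.151 and was under 0.05 only without N-LKO replicate 1. DESeq2 gave an adjusted p of 7.05e-05, limma-voom 0.117 and library totals without TMM 0.0628.

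**Figure D3:**
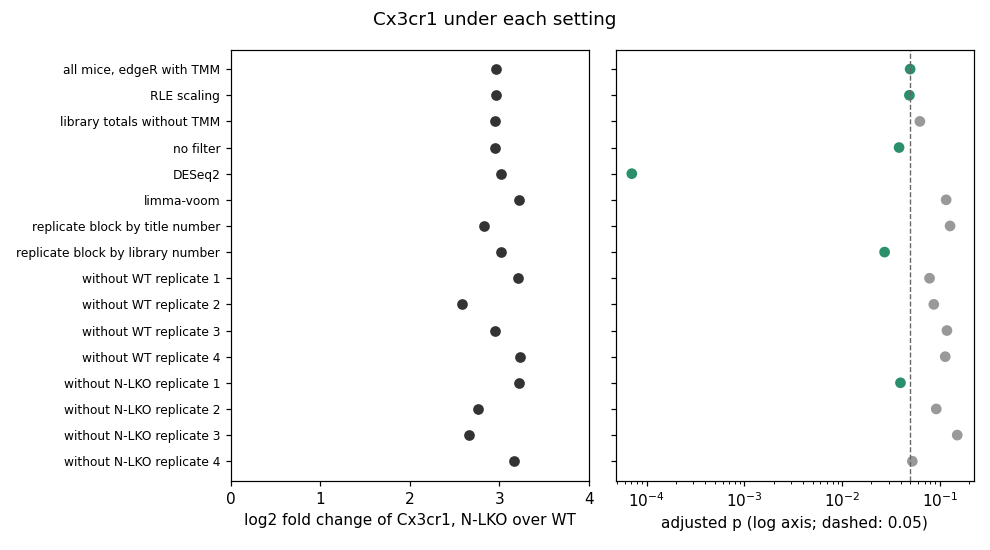
Log2 fold change of Cx3cr1 (left) and its adjusted p on a log axis (right, dashed line at 0.05) with all mice, under 7 other settings and with each mouse left out. The fold change stays between 2.59 and 3.23, whereas the adjusted p falls on both sides of the dashed line.

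In whole liver RNA, more cells of a type and more mRNA per cell cannot be told apart. Markers of several cell types were therefore read beside Cx3cr1. The 8 Kupffer cell markers were all tested with none called by edgeR and 1 under 0.05 unadjusted, which was lower in N-LKO livers. The sum of the 8 was 89.1 to 155 CPM in WT and 81.8 to 140 CPM in N-LKO livers. Of 8 monocyte and macrophage markers, 6 were tested, with none called and 0 under 0.05 unadjusted, although 96.5% of that sum was Fn1, which hepatocytes also make. Of 6 lipid-associated macrophage markers, 5 were tested, and Gpnmb and Mmp12 were called higher. Lpl and Lgals3 were not called by edgeR, at log2 fold changes of 0.60 and 0.91 (adjusted p = 0.152 and 0.105), although neither overlapped between genotypes. Cd9 was not called either, at a log2 fold change of -0.012. Under 0.05 unadjusted were 4 of the 5, all higher in N-LKO livers, against 12.8% of all genes in either direction. Trem2, too low for the test, had means of 0.0605 CPM in WT and 0.567 CPM in N-LKO livers, without overlap. The sum of these 6, of which Lpl made up 59.5%, was 43.4 to 50.0 CPM in WT livers and 62.3, 66.3, 89.6 and 65.3 CPM in N-LKO replicates 1 to 4.

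Some markers of bile ducts and fibroblasts were also called. Epcam and Spp1 were called higher among the 4 tested of 6 cholangiocyte markers, whose sum was 23.1 to 45.0 CPM in WT and 52.5, 83.8, 133 and 79.9 CPM in N-LKO replicates 1 to 4. Spp1 made up 76.6% of that sum. Sox9 and Krt19 were not called by edgeR, at log2 fold changes of 1.01 and 0.59 (adjusted p = 0.105 and 0.428). An unadjusted p under 0.05 was reached by 3 of the 4, all higher in N-LKO livers. Col1a1 and Lum were called higher among 6 fibroblast markers, whose sum was 144.3 to 199.9 CPM in WT and 217.4 to 306.5 CPM in N-LKO livers. Dcn made up 77.2% of it, and Dcn, Col1a2, Col3a1 and Thy1 were not called. All but Thy1, or 5 of the 6, had an unadjusted p under 0.05 and were higher in N-LKO livers. N-LKO replicate 3, with the highest Cx3cr1 level, also had the highest sum of all 3 of these lists. This was not particular to them. The same liver had the highest sums of dendritic cell markers, at 13.1 CPM, and of B cell markers, at 6.17 CPM. Among N-LKO livers it also had the highest Kupffer cell sum, at 140 CPM. The part of these lists in the Cx3cr1 result was not tested. No gene was called in the lists for neutrophils, T cells, B cells, dendritic cells, sinusoidal endothelial cells and stellate cells. However, edgeR tested only 2 of 4 neutrophil, 2 of 8 T cell, 1 of 5 B cell and 3 of 6 dendritic cell markers. None of the 5 NK cell markers in the table was tested. All 6 sinusoidal endothelial and all 6 stellate cell markers were tested. Of the stellate cell markers, 2 had an unadjusted p under 0.05, both higher in N-LKO livers. For 1 of these, Pdgfrb, the genotypes did not overlap (log2 fold change 1.04, adjusted p = 0.0688). No marker present in the table was at 0 in all 8 livers.

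Cx3cl1 encodes fractalkine, the membrane-anchored ligand of Cx3cr1, and lies on chromosome 8 from 94772009 to 94782427. It was at 0.374, 0.5, 0.190 and 0.166 CPM in WT replicates 1 to 4. The N-LKO livers were at 0.454, 1.45, 1.46 and 0.815 CPM. The groups overlapped by 1 mouse, since N-LKO replicate 1 was below WT replicate 2 (exact two-sided permutation test, p = 0.0571). Cx3cl1 held 85 counts in all, and too few livers reached the filter's minimum for it to enter the edgeR test. Without the filter its log2 fold change was 1.72 (standard error 0.486) and did not pass the test (adjusted p = 0.161). As for its receptor, N-LKO replicates 2 and 3 were the highest of all 8 livers. The part of the marker lists given for Cx3cr1 in the Cx3cl1 values was not tested.

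The Cxcl12 axis consists of the ligand, its signalling receptor Cxcr4 and the scavenging receptor Ackr3. Cxcl12, on chromosome 6 from 117168535 to 117181367, was at 276, 238, 308 and 333 CPM in WT replicates 1 to 4. In N-LKO replicates 1 to 4 it was at 275, 345, 332 and 353 CPM. The groups overlapped in part, with N-LKO replicates 2 and 4 above every WT liver and WT replicate 2 below every N-LKO liver. A log2 fold change of 0.18, with a standard error of 0.117, did not pass the test (adjusted p = 0.581).

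Cxcr4, on chromosome 1 from 128588199 to 128592293, was at 0.748, 1.31, 0.761 and 1.55 CPM in WT replicates 1 to 4. N-LKO livers were at 1.81, 1.78, 1.92 and 2.24 CPM, all above the highest WT value (two-sided exact permutation test, p = 0.0286). The N-LKO values lay closer together than the WT values. On 75 WT and 121 N-LKO counts this was a log2 fold change of 0.82 (standard error 0.274), which did not pass the adjustment over all genes (adjusted p = 0.223).

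Ackr3, on chromosome 1 from 90203980 to 90216751, was at 0.267, 0.438, 0.444 and 0.331 CPM in WT replicates 1 to 4. The N-LKO livers were at 0.964, 1.19, 0.664 and 0.475 CPM (exact two-sided permutation test, p = 0.0286). The genotypes did not overlap, but the gap between the highest WT and the lowest N-LKO liver was narrow, and the totals were 25 and 52 counts. Ackr3 was too low for the edgeR test, and without the filter its log2 fold change of 1.15 (standard error 0.397) had an adjusted p of 0.265. The highest WT and the lowest N-LKO liver each held 7 counts. The sums of lipid-associated macrophage, cholangiocyte and fibroblast markers, each mostly 1 gene, also did not overlap between genotypes, and their part in Cxcr4 and Ackr3 was not tested.

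**Figure D4:**
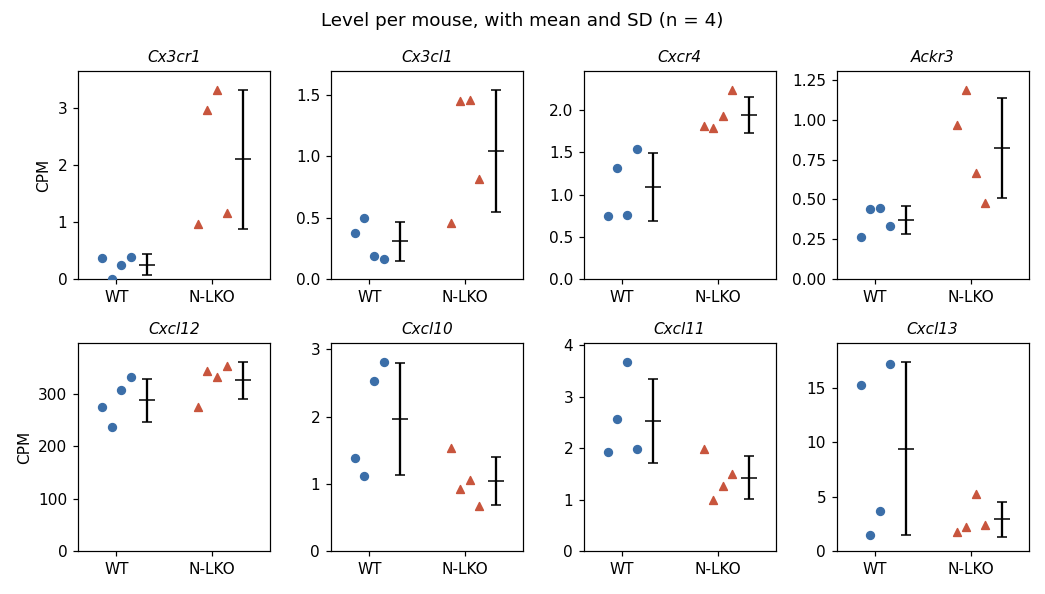
CPM of 8 genes in each liver, with WT replicates 1 to 4 (circles) and N-LKO replicates 1 to 4 (triangles) from left to right and the mean with its SD (n = 4) beside each group, each panel on its own axis from 0. Cx3cr1, Cxcr4 and Ackr3 have no overlap between genotypes, Cxcl12 overlaps in part, and the WT livers spread from 1.5 to 17.2 CPM for Cxcl13.

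The ligands of Cxcr3 lie together on chromosome 5 from 92321347 to 92365485. Cxcl10 was at 1.39, 1.13, 2.54 and 2.81 CPM in WT replicates 1 to 4 and at 1.53, 0.924, 1.06 and 0.679 CPM in N-LKO replicates 1 to 4. WT replicates 3 and 4 were the highest, and the other 2 WT livers overlapped with N-LKO (exact two-sided permutation test, p = 0.114). The log2 fold change of -0.89 (standard error 0.357) did not pass the test (adjusted p = 0.326).

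Cxcl11 was at 1.92, 2.56, 3.68 and 1.99 CPM in WT and at 1.98, 0.990, 1.26 and 1.49 CPM in N-LKO livers. N-LKO replicate 1 alone reached into the WT range (exact two-sided permutation test, p = 0.0571). The log2 fold change of -0.80, with a standard error of 0.285, did not pass the test (adjusted p = 0.253). The annotation lists Cxcl11 as a polymorphic pseudogene, since C57BL/6 mice carry a disrupted copy, and 41.7% of its exon bases overlap Gm2673 on the opposite strand, from which its reads cannot be separated if strand was not counted.

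Cxcl9, the third gene of this cluster, had a WT range of 2.69 to 8.33 CPM around the N-LKO range of 3.10 to 5.09 CPM. The log2 fold change, -0.22 with a standard error of 0.338 (adjusted p = 0.848), turned to 0.16 without WT replicate 4. The summed level of these 3 ligands was 9.46 ± 3.68 CPM in WT and 6.74 ± 1.27 CPM in N-LKO livers (SD, n = 4 each), and the WT livers varied more among themselves than the means differed. Cxcr3 itself was under 0.3 CPM.

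Cxcl13, which attracts B cells through Cxcr5, had the lowest fold change of the tested members and a wide spread among WT livers. WT livers were at 15.2, 1.5, 3.74 and 17.2 CPM, and N-LKO livers were at 1.76, 2.24, 5.24 and 2.44 CPM. WT replicates 1 and 4 were well above the other 6 livers, while WT replicate 2 was the lowest of all 8 (exact two-sided permutation test, p = 0.257). The log2 fold change of -1.71 (standard error 0.650) did not pass the test (adjusted p = 0.293) and lay between -2.15 and -1.25 with each mouse left out. The 5 B cell markers summed to 2.81 to 5.85 CPM in WT and 3.12 to 6.17 CPM in N-LKO livers. The Kupffer cell markers were also highest in WT replicates 1 and 4, at 150 and 155 CPM, and their part in the Cxcl13 values was not tested.

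The myeloid ligands Ccl9 and Ccl6, both agonists of Ccr1, lie in a cluster of 4 members on chromosome 11 that spans 123.6 kb. Ccl9 was at 27.9, 31.8, 24.4 and 27.4 CPM in WT and at 24.9, 25.9, 27.1 and 29.4 CPM in N-LKO livers. It varied little between mice, and its log2 fold change of -0.055 had the smallest standard error, 0.0945 (adjusted p = 0.866). Ccl6 was at 13.8, 4.50, 5.14 and 6.62 CPM in WT and at 7.88, 8.91, 6.97 and 6.31 CPM in N-LKO livers. WT replicate 1 stood above all others, and its removal moved the log2 fold change from -0.0078 to 0.47, which did not pass the test (adjusted p = 0.272, against 0.995 with all mice).

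WT replicate 1 was also high in Cxcl1, the neutrophil attractant that binds Cxcr2. It reached 5.82 CPM there against 0.688 to 2.21 CPM in the other WT livers and 0.264 to 3.06 CPM in the N-LKO group. Its log2 fold change went from -0.95 (adjusted p = 0.639) to -0.048 without that mouse. Neutrophil markers summed to 5.18 CPM in that mouse and to 1.46 to 1.99 CPM in the other 3 WT livers, with 2.72 to 3.56 CPM in N-LKO livers, and their part in these values was not tested.

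Ccr2, the receptor of inflammatory monocytes, lies in a receptor cluster on chromosome 9 that also holds Ccr9, Cxcr6, Xcr1 and Ccr1. WT livers were at 2.03, 0.313, 1.08 and 1.77 CPM and N-LKO livers at 1.19, 1.85, 1.39 and 1.43 CPM. The N-LKO values lay inside the WT range. The log2 difference of 0.15 was smaller than its standard error of 0.423 (adjusted p = 0.923). Its deposited counts held fractions of reads, and how these arose is not given in the sources used here.

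Both tested atypical receptors had lower means in N-LKO livers without passing the test. Ackr2, which degrades inflammatory CC chemokines, was at 8.76, 7.5, 5.33 and 7.62 CPM in WT and at 3.80, 6.86, 4.71 and 4.69 CPM in N-LKO livers. Only N-LKO replicate 2 reached into the WT range (exact two-sided permutation test, p = 0.0571), and edgeR fitted a log2 fold change of -0.55 with a standard error of 0.202 (adjusted p = 0.274). Ackr4, which takes up Ccl19, Ccl21 and Ccl25, was at 3.61 to 5.38 CPM in WT and 1.98 to 5.21 CPM in N-LKO livers (log2 fold change -0.39, adjusted p = 0.581). Acad11, on the opposite strand, overlaps 8.9% of the exon bases of Ackr4, whose deposited counts held fractions of reads. N-LKO replicate 1 was the lowest of all livers for both receptors. The summed level of the 4 atypical receptors was 12.6 ± 1.96 CPM in WT and 9.65 ± 2.75 CPM in N-LKO livers (SD, n = 4 each).

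The remaining tested ligands showed overlapping groups. Cxcl16, the membrane-bound ligand of Cxcr6, was at 3.50 to 5.90 CPM in WT and 4.25 to 7.76 CPM in N-LKO livers (log2 fold change 0.40, standard error 0.226, adjusted p = 0.505), and 18.3% of its exon bases overlap Zmynd15 on the opposite strand. Ccl25, the ligand of Ccr9, was at 5.72 to 7.62 and 5.05 to 7.26 CPM (log2 fold change -0.17, adjusted p = 0.698). Ccl27a was at 1.88 to 2.10 CPM in WT and 1.26 to 1.97 CPM in N-LKO livers (log2 fold change -0.33, adjusted p = 0.546), and it has near-identical copies between which reads could be split. Ccl24, an eosinophil attractant, was at 0.313 to 0.802 and 0.454 to 1.12 CPM (log2 fold change 0.36, adjusted p = 0.777). None of these 4 was past the threshold with any mouse left out.

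Besides Cx3cl1 and Ackr3, 7 reported genes were too low for the edgeR test, and all of them overlapped between genotypes. Ccl5, a T cell attractant, had the largest separation among these 7, at a mean of 0.329 ± 0.202 CPM in WT and 0.733 ± 0.275 CPM in N-LKO livers (SD, n = 4 each, exact two-sided permutation test, p = 0.0857). Without the filter its log2 fold change of 1.1 did not pass the test (adjusted p = 0.410). The T cell markers summed to 2.85 to 3.75 CPM in WT and 2.84 to 4.42 CPM in N-LKO livers. Ccl19 and Ccl21a, both ligands of Ccr7, had WT means of 0.357 and 0.583 CPM and N-LKO means of 0.423 and 0.564 CPM, and Ccl21a has near-identical copies that its reads could also come from. Cxcl14 was at 0.757 and 0.870 CPM in WT and N-LKO livers. Among receptors, Ccr9 had means of 0.531 and 0.598 CPM, Cxcr6 of 0.377 and 0.476 CPM and Xcr1, a receptor of cross-presenting dendritic cells, of 0.461 and 0.329 CPM, in WT and N-LKO livers respectively. These 7 genes held 51 to 106 counts each over all 8 livers.

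The 12 members under 0.3 CPM were the ligands Ccl2, Ccl3, Ccl21b, Ccl22, Ccl28 and Xcl1, the receptors Ccr1, Ccr7, Cxcr2, Cxcr3 and Cxcr5, and the atypical receptor Ackr1. They held 14 to 36 counts each over all livers and at most 12 in any mouse, and 8 of them had at least 1 mouse at 0. The receptors of several reported ligands were thus near the detection limit in whole liver. Ccr1 binds Ccl9 and Ccl6, Cxcr2 binds Cxcl1, Cxcr3 binds Cxcl9 to Cxcl11 and Cxcr5 binds Cxcl13.

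Genes acting around the chemokine system were read from fixed lists. Of 8 chemokine-related genes that the symbol rule misses, 6 were tested and none called, and Dpp4, the peptidase that truncates several chemokines, came nearest with 127 ± 5.64 CPM in WT and 102 ± 8.41 CPM in N-LKO livers (SD, n = 4, adjusted p = 0.0866). The others tested were Ccrl2, Cd74, Cmklr1, Mif and Rarres2, all with overlapping genotypes, while Pf4 and Ppbp were too low. Of 22 receptor signalling genes, 21 were tested, and 1, Grk5, was called higher. This kinase of activated receptors was at 4.74 ± 0.959 CPM in WT and 8.38 ± 0.479 CPM in N-LKO livers (SD, n = 4, log2 fold change 0.82, adjusted p = 0.0263). Fgr, a myeloid Src-family kinase, was at 2.19 and 1.33 CPM without passing the test (adjusted p = 0.339). The median log2 fold changes of these lists were 0.049 and -0.034, against -0.0033 over all genes.

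Of 13 inducers of chemokines and adhesion molecules tested, none was called, 3 had an unadjusted p under 0.05, and their median was -0.013. Nfkbia, the inhibitor of NF-kappa B, was at 38.4 and 29.8 CPM (adjusted p = 0.374) and the cytokine Il1a at 3.45 and 5.20 CPM (adjusted p = 0.210) in WT and N-LKO livers.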

How the data were processed

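Liver RNA was measured in 4 WT and 4 N-LKO mice, grouped by the genotype in their labels. The authors deposited 1 estimated count per gene and mouse, which is a read count that need not be whole and is not scaled to depth. Of all genes, 52.3% held decimals in at least 1 mouse, as did 13 of the 39 members, and no gene had fewer than 10 counts over all mice. The study's methods describe in-house trimming and alignment with TopHat2, whereas the submitters' processing notes name STAR, Partek and mm9. The program behind the counts and its use of strand are not given in the sources used here. The deposited gene spans matched GENCODE M21 of GRCm38 for 38 of the 39 members, all except Ccl21b, and GRCm38 coordinates are given. A small RNA library kit is named for these libraries.

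Counts were rounded, filtered with filterByExpr at its defaults (minimum count 10 and minimum total 15), normalized by TMM and analysed by the quasi-likelihood test of edgeR 4.0.16 (R 4.3.3) on genotype alone. Standard errors were derived from the F statistic and the log2 fold change. For log2 CPM the prior count was 2. For single genes, mean CPM was also set against all exchanges of mice between genotypes (exact two-sided permutation test). The alternatives were RLE scaling, library totals, other filters, DESeq2 1.42.0, limma-voom (limma 3.58.1), replicate blocks and each mouse left out. The code was tested on simulated data. Libraries are from separate mice, and no pair of them was as alike as sampling noise, with a chi-square per degree of freedom of 11.9 to 69.4.

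The members and the gene lists were chosen with earlier results of these data known. Members at a mean of 0.3 CPM or more were named, with every mouse's value for those called, without overlap, with an unadjusted p under 0.05 or among the 3 highest ligands or receptors. Genes outside the members were named only from fixed lists, if called, if under an unadjusted p of 0.05 or if missed by the symbol rule, and not all that qualified are named. Krt19, Thy1, Cd9, Trem2 and Fn1 are named outside that rule, after their values were seen. Promoter sequences are RefSeq's for GRCm38.p6. The values of 1 member and of 1 list gene are not reported here, although both are included in the counts, sums and medians.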

Additional observations from a re-analysis of the deposited data

Results flagged for a closer look

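Cxcl14, a ligand too low for the edgeR test, stood out in N-LKO replicate 2, at a log2 CPM of 0.88 against -0.59 to -0.42 in the other 3 N-LKO livers, which is beyond Dixon's critical value for 4 mice. The value rested on 26 counts. This was 1 of 54 groups of 4 mice examined, and chance flags about 1 group in 20.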

How the results depend on the processing

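With all mice, 1 member was called, and it was called higher. The count was 0 with library totals without TMM, with at least 10 counts in every mouse (which leaves Cx3cr1 untested), with limma-voom and with the title number as a replicate block, and 0 to 1 with each mouse left out. Over all settings 4 to 9 members had an unadjusted p under 0.05, but between 14 and 39 members were tested, so these counts are not comparable. They were 9 of 39 with no filter, 9 of 21 without WT replicate 2 and 5 of 14 with at least 10 counts in every mouse. The share of all genes under that threshold is given only for the main fit, at 12.8%. DESeq2 called 1 member. No setting called a member lower. The library number as a replicate block gave 1 call. The Cx3cr1 log2 fold change was 2.59 to 3.23 throughout, with an adjusted p of 0.0273 under the library block and 0.128 under the title block, and correlations between mice of the same number (-0.085 to 0.062 for titles, -0.0092 to 0.17 for libraries) do not pair the mice.

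The count of members without overlap, 3 with all mice, was 3 to 6 with each mouse left out, with 5 without WT replicate 4 and 6 without N-LKO replicate 1. Non-overlap is easier to reach with a mouse fewer, and the share over all genes is not given for these settings. A higher count there is thus not a result about the members or the mouse left out. At a limit of 0.1 CPM 39 members were reported, and at 1 CPM 17. The number of groups with a mouse set apart was 3 with a prior count of 0.5. Of 300 alternative values for 19 genes, 281 had the direction and side of the threshold found with all mice. Reversed values were those of Ccl6, at 0.11 with limma-voom, 0.098 under the title block, 0.11 under the library block and -0.19 to 0.47 with each mouse left out, and, with each mouse left out, Ccl9 (-0.11 to 0.013), Ccr2 (-0.16 to 0.45) and Cxcl9 (-0.42 to 0.16). Nus1 was called in every setting. Calls over all genes ranged from 71 to 371. Depth limits genes near 0.3 CPM, and 9 of 18 standard errors were above 0.3. The cause of these changes was not tested.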
